A study of Homo sapiens with 6 samples.

Results

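Galectins are lectins, proteins that bind galactose-bearing sugar chains (beta-galactosides) on glycoproteins and glycolipids of the cell surface, and several of them also act inside the cell. Lymphocytes and thymic stromal cells make them, and galectins 1, 3, 8 and 9 are known for crosslinking glycoproteins of the T-cell surface, which can alter T-cell receptor signalling, adhesion and survival. Which glycoproteins they bind depends on the N-glycan branches, O-glycan cores and sialic acid caps that glycosyltransferases build.

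The genes described are LGALS1, LGALS3, LGALS8 and LGALS9, which encode galectins 1, 3, 8 and 9. Their members were the non-control probes whose RefSeq accession in the scanner files belongs to 1 of these symbols, which gave 5 probes of 57105, since LGALS9 has 2 probes and the others have 1 each. All 5 probes were well above background on all 6 arrays and entered the test, which covered 31134 probes and 14491 genes in all. The members were chosen by a measured value, the rise of LGALS1 on the shTCF1 arrays, which is among the largest there. The differences between shTCF1 and control, and for LGALS1 also those between shGATA3 and shTCF1, are therefore given as a description without a test. The tests of shGATA3 against control use the same control arrays, and those of shGATA3 against shTCF1 the same shTCF1 arrays, as the contrast behind that choice.

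RPMI-8402, an established cell line from a human T-cell acute lymphoblastic leukaemia, was transduced with lentivirus carrying a short hairpin RNA (shRNA). The hairpin was a control, or was named for GATA3 (shGATA3) or for TCF1, the protein of the TCF7 gene (shTCF1). The study's methods call the control a control shRNA, where the sample titles say only control. Below, shRNA arrays and shRNA groups mean those labelled shGATA3 or shTCF1. Every group consisted of EGFP-positive cells sorted 48 h after transduction, and each had 2 arrays made from 100 ng of RNA per sample. The comparison asks how expression changes when each of these T-lineage transcription factors is targeted. All groups come from 1 cell line, and the sequence behind shTCF1 is not given in the sources used here. The study describes its RPMI-8402 array data as averages of 2 independent experiments. The labels do not say whether the 2 arrays of a group came from separate cultures. The p-values thus measure only the spread between these samples, which may be technical in part. Unless stated otherwise a value is a normalized log2 intensity, on which a difference of 1 is a doubling, and a probe was called when limma's p, adjusted by the Benjamini-Hochberg method over all tested probes, was below 0.05.

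The label shTCF1 was borne out by TCF7 and the label shGATA3 was not borne out by GATA3, for which a single probe, A_33_P3360341, was available. GATA3 read 9.57 and 9.61 on the control arrays, 9.52 and 9.62 on the shGATA3-labelled arrays and 9.84 and 9.92 on the shTCF1 arrays. Its difference between the shGATA3-labelled arrays and control was -0.017 (95% interval -0.23 to 0.19, limma adjusted p 0.919), and the sign turned in 1 of 4 other scalings. The probe A_23_P7582 of TCF7 was lower by 2.43-fold on the shTCF1 arrays than on the control arrays (limma adjusted p 0.000465), and the probe A_33_P3250671 by 2.69-fold (limma adjusted p 0.000813). On the shGATA3-labelled arrays both TCF7 probes were called higher than on control, by 0.36 (limma adjusted p 0.0336) and 0.56 (limma adjusted p 0.0238). The first of these calls did not survive the removal of any single array or any of 4 other scalings, and the other without control array 1, control array 2 or the second shGATA3-labelled array and in 3 of 4 other scalings. Below, a direction drawn from shGATA3 is that of the arrays so labelled.

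All 6 arrays lay on 1 slide, with the control arrays in its second row and all arrays labelled shGATA3 or shTCF1 in its first. Slide row and control therefore cannot be told apart. Before normalization the 75th percentile of the intensity was 270 and 287 on the control arrays. It was 175 and 176 on those labelled shGATA3 and 179 and 165 on those labelled shTCF1. Between 51.0% and 56.2% of probes were well above background, and 0 were saturated. All 9 T-lineage markers examined, among them CD3D, CD3E, CD7 and PTCRA, measured above background throughout. They summed to 72643 to 76101 on control, 102911 to 122619 on shGATA3 and 69978 to 91110 on shTCF1 arrays, in normalized intensity. In this linear sum the brightest marker, CD3D, weighs most. CD3D had means of 15.11 on control, 15.96 on shGATA3-labelled and 15.16 on shTCF1 arrays on the log2 scale, and was called in no contrast. Against control, CD3G and PTCRA were called higher on the shGATA3-labelled arrays, and CD3E and CD3G on the shTCF1 arrays. CD2 was called lower on both. Between the shRNA groups CD2 was called higher where shGATA3 was the label, and CD247 and CD5 lower. Of 6 myeloid markers with a probe 4 (CD14, ITGAM, CD68 and MPO) exceeded background on all arrays, FCGR3A was dim on all, and their summed normalized intensity was 476 to 508 on control, 488 to 490 on shGATA3 and 498 to 510 on shTCF1 arrays, with 0 of the 5 tested called in any contrast. Of 6 NK markers KLRD1 and KLRF1 were dim on all arrays and NCAM1, NCR1 and NKG7 were bright on all. The list summed to between 2334 and 2425 on control, 2457 and 2711 on shGATA3 and 2268 and 2270 on shTCF1 arrays. Of these NCAM1, an adhesion molecule, was called, at 1.34 for shGATA3 against control (limma adjusted p 0.000526), -0.65 for shTCF1 against control (limma adjusted p 0.00470) and 1.99 between the shRNA groups. Of 6 stromal and epithelial markers COL1A2, EPCAM and PDGFRB were dim and COL1A1, KRT8 and KRT18 bright on all arrays, with sums of 1535 to 1572, 1683 to 1723 and 1614 to 1733 in the same order of groups, and KRT8 was called on the shTCF1 arrays (0.36) and KRT18 between the shRNA groups (0.44). The part of these markers in the results below was not tested. In bulk samples, fewer cells that express a gene and less RNA of it per cell cannot be told apart.

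LGALS1 was highest on the shTCF1 arrays and lowest on the shGATA3-labelled arrays. Galectin 1 is a small lectin that works as a dimer and is known for binding CD2, CD7, CD43 and CD45 on T cells. The LGALS1 probe read 8.71 and 8.89 on the control arrays, 7.65 and 8.03 on the shGATA3-labelled arrays, and 10.85 and 10.82 on the shTCF1 arrays. The control and shGATA3-labelled arrays did not overlap, a state that 60.2% of all tested probes shared in that contrast. The arrays within a group lay within 0.38 of each other while the group means lay 0.96 or more apart. The distance of the shTCF1 arrays from control rests on the values that chose LGALS1. The order was the same in the intensities before normalization, which were 503 and 625 on the control arrays, 145 and 201 on those labelled shGATA3, and 1582 and 1484 on the shTCF1 arrays. As a description, LGALS1 was higher on the shTCF1 arrays than on the control arrays by 2.04 (SE 0.14, n = 2 and 2), a 4.11-fold difference, which placed it at rank 4 from the top of 14491 genes. Between the shGATA3-labelled arrays and those labelled shTCF1 the difference was -3.00 (SE 0.14), an 8.01-fold difference at rank 5 from the bottom.

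**Figure D1:**
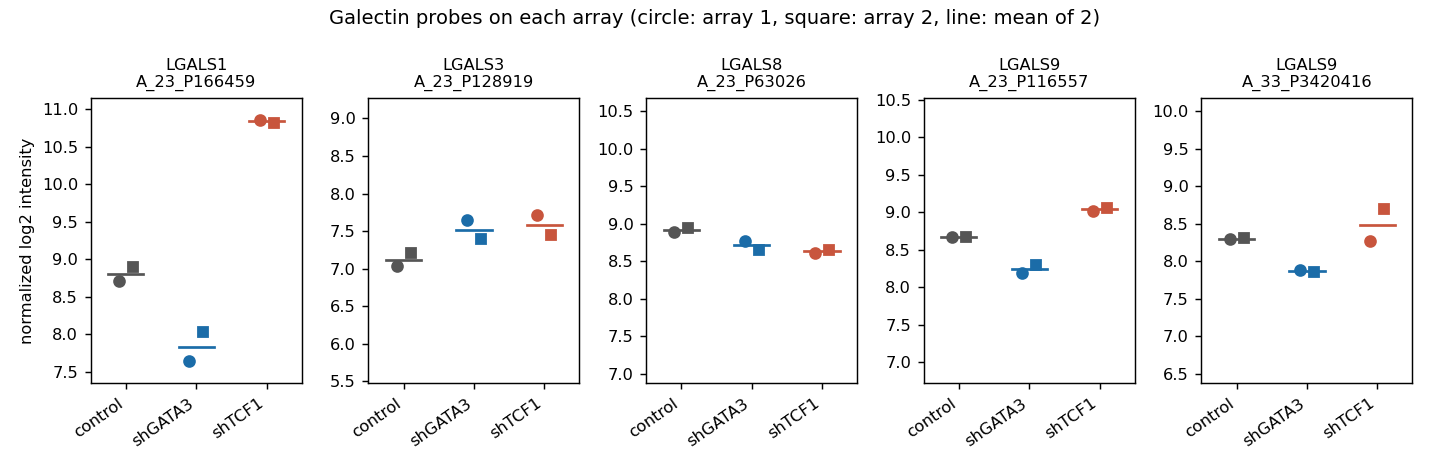
Normalized log2 intensity (vertical axes, all of the same span) of the 5 galectin probes in the 3 groups, with a point for each array and a line at the mean of 2 arrays. LGALS1 lies near 10.8 on both shTCF1 arrays and at or below 8.03 on both arrays labelled shGATA3. The LGALS9 probe A_23_P116557 follows the same order over a smaller range, and for A_33_P3420416 the shTCF1 arrays overlap with control. LGALS3 lies above control in both shRNA groups, and LGALS8 below it.

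On the shGATA3-labelled arrays, LGALS1 fell by 0.96 on the log2 scale relative to control (SE 0.14, 95% interval -1.28 to -0.64), a 1.95-fold difference with a limma adjusted p of 0.00661. The call held in each of 6 fits that left out 1 array, with adjusted p from 0.0119 to 0.0277, and in 4 of 4 other scalings of the scanner values. Of the 5 galectin probes, 2 were called in this contrast, both lower, against 11.4% of all probes tested that were called and 6.18% called lower. Groups did not overlap for any of the 5 probes, a state that 60.2% of all tested probes shared.

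LGALS9 showed the same order as LGALS1 over a narrower range. Galectin 9 carries a pair of sugar-binding domains on 1 chain and is known as a ligand of TIM-3 (HAVCR2). Its probe A_23_P116557 read 8.67 on both control arrays, 8.18 and 8.29 on the shGATA3-labelled arrays, and 9.02 and 9.06 on the shTCF1 arrays. The shGATA3-labelled arrays did not overlap with control, as was so for 60.2% of all tested probes in that contrast. This LGALS9 probe fell by 0.43 on the log2 scale on the shGATA3-labelled arrays relative to control (SE 0.087, 1.35-fold, limma adjusted p 0.0219). That call was lost without control array 1 (limma adjusted p 0.122), without control array 2 (0.102) or without the first shGATA3-labelled array (0.0568), and 2 of 4 other scalings did not make it. As a description, it was higher by 0.37 on the shTCF1 arrays than on the control arrays (SE 0.087).

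Between the shGATA3-labelled arrays and the shTCF1 arrays, LGALS9 differed by -0.80 (SE 0.087, 1.74-fold, limma adjusted p 0.00191), and this call held in all 6 fits that left out 1 array and in 4 of 4 other scalings. Of the 4 galectin probes tested there, LGALS1 not being among them, both LGALS9 probes were called lower, against 9.36% of all probes that were called and 4.15% called lower. The second LGALS9 probe, A_33_P3420416, read 8.30 on both control arrays, 7.88 and 7.86 on the shGATA3-labelled arrays, and 8.27 and 8.69 on the shTCF1 arrays. Its difference of -0.43 between shGATA3 and control was not called (limma adjusted p 0.0851), and that of -0.61 between shGATA3 and shTCF1 was (limma adjusted p 0.0346), but not without either shGATA3-labelled array or without the second shTCF1 array, and in 1 of 4 other scalings only. On the shTCF1 arrays this probe overlapped with the control arrays, and the probe A_23_P116557 did not. Before normalization, the intensity of A_23_P116557 was 491 and 529 on control, 223 and 247 on shGATA3 and 425 and 419 on shTCF1 arrays, so the direction against control on the shTCF1 arrays rests on the scaling for brightness, and the order of the shRNA groups does not.

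LGALS3 lay higher and LGALS8 lower in both shRNA groups than in control, and neither passed the test in either contrast that was tested. Galectin 3 has a single sugar-binding domain behind a flexible amino-terminal tail through which it forms oligomers, and it is made by many cell types, macrophages among them. LGALS3 read 7.04 and 7.20 on the control arrays, 7.65 and 7.39 on the shGATA3-labelled arrays, and 7.71 and 7.44 on the shTCF1 arrays. Both shRNA groups lay above control and overlapped each other. The difference was 0.40 for shGATA3 against control (95% interval 0.088 to 0.71, limma adjusted p 0.0974, and called at 0.0427 with normexp background correction), 0.46 for shTCF1 against control (SE 0.13) as a description, and -0.059 between the shRNA groups (95% interval -0.37 to 0.25, limma adjusted p 0.825). Before normalization the LGALS3 intensities of the 3 groups overlapped, at 129 and 162 on control, 146 and 120 on shGATA3, and 156 and 118 on shTCF1 arrays.

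Galectin 8, like galectin 9, carries a pair of sugar-binding domains, and it is known for recognising damaged endosomes together with the autophagy receptor CALCOCO2 (NDP52). LGALS8 read 8.89 and 8.94 on the control arrays, 8.78 and 8.65 on the shGATA3-labelled arrays, and 8.62 and 8.65 on the shTCF1 arrays. The control arrays were the highest, and the shRNA groups met near 8.65. The difference was -0.20 for shGATA3 against control (95% interval -0.41 to 0.0069, limma adjusted p 0.183), -0.28 for shTCF1 against control (SE 0.089) as a description, and 0.079 between the shRNA groups (95% interval -0.13 to 0.29, limma adjusted p 0.624).

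**Figure D2:**
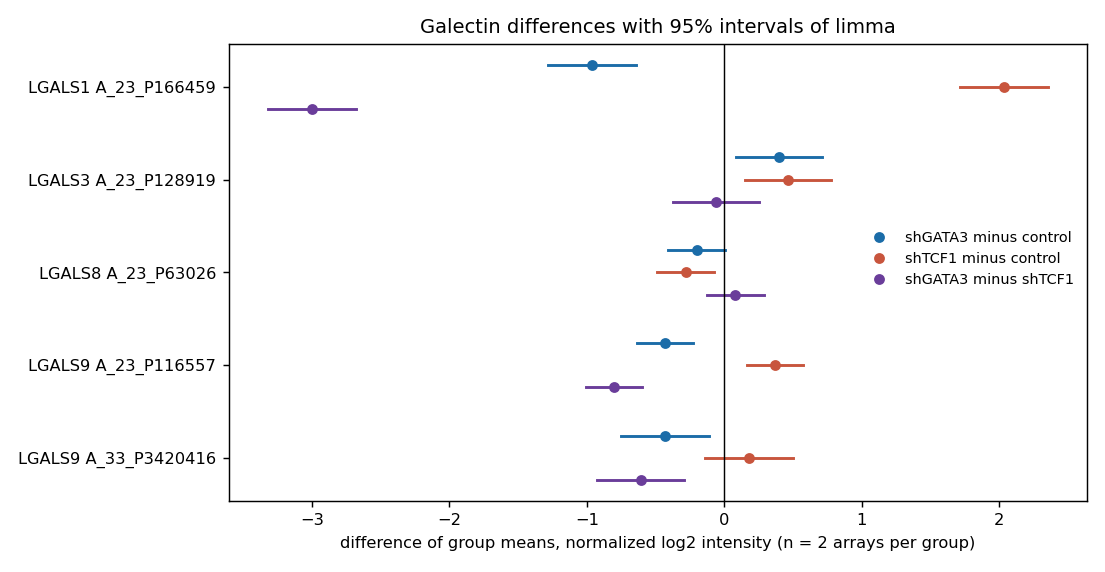
Differences of group means in normalized log2 intensity (horizontal axis) for the 5 galectin probes in the 3 contrasts, with the 95% interval of the limma fit and 2 arrays per group. LGALS1 and the probe A_23_P116557 of LGALS9 lie below 0 for shGATA3 minus control and above 0 for shTCF1 minus control. For LGALS3 and LGALS8 the interval of shGATA3 minus shTCF1 covers 0. The intervals of shTCF1 minus control, and that of LGALS1 for shGATA3 minus shTCF1, are descriptions and no test. The values behind the choice of members lie in them.

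**Figure D3:**
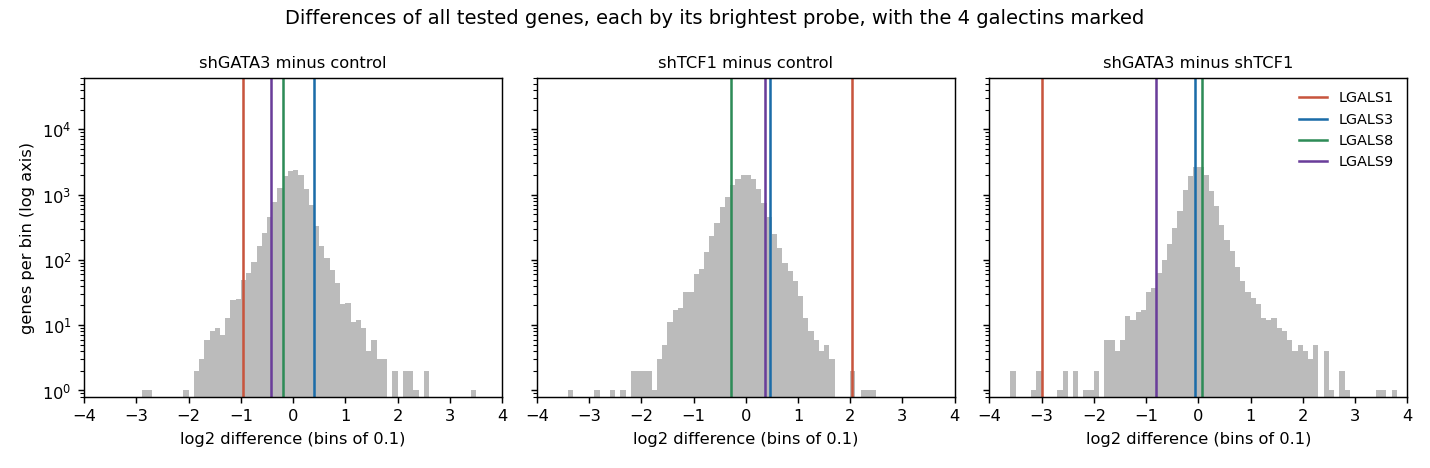
Number of genes per bin of 0.1 (log axis) against their log2 difference in each contrast, over 14491 genes represented by their brightest tested probe, with vertical lines at the 4 galectins. LGALS1 stands at 2.04 for shTCF1 minus control and at -3.00 for shGATA3 minus shTCF1, far out in the distribution. LGALS3 ranks 812 from the highest for shGATA3 minus control and 836 for shTCF1 minus control, and LGALS9 ranks 987 from the lowest and 1307 from the highest.

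Of 13 other listed galectin genes, 10 had a probe and 5 were tested, each of them measured above background throughout. LGALS12, a galectin of adipocytes and myeloid cells, fell by 0.41 on the shGATA3-labelled arrays (limma adjusted p 0.0419) and by 0.52 on the shTCF1 arrays (limma adjusted p 0.0117). LGALS9C, a near-identical copy of LGALS9, read 12.47 and 12.49 on the control arrays, 12.21 and 12.23 on the shGATA3-labelled arrays, and 13.27 and 13.36 on the shTCF1 arrays. It rose by 0.83 on the shTCF1 arrays (1.78-fold, limma adjusted p 0.00155), was lower by 2.13-fold on the shGATA3-labelled arrays than on the shTCF1 arrays (limma adjusted p 0.000474), and had a difference of -0.26 between shGATA3 and control that was not called. The LGALS9C and LGALS9 probes may share RNA of these copies and of LGALS9B, so the gene behind their signal is uncertain. LGALS4, LGALS7 and LGALSL passed the test in no contrast.

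The promoters of the LGALS9 copies are shown because the LGALS9 and LGALS9C probes took the same order over the groups. The sequences are the 250 bases before the annotated start in the RefSeq table of GRCh38.p14, 5′ to 3′ on the strand of the gene. LGALS9 lies at chr17:27630938-27631187 on the plus strand and LGALS9C at chr17:18476539-18476788 on the plus strand. Capitals mark matches, on either strand, to CTTTGA or CTTTGT, the core bound by TCF/LEF proteins such as TCF1, or to AGATAA or TGATAA, sites of GATA proteins, and these motifs do not overlap in the windows shown.
LGALS9: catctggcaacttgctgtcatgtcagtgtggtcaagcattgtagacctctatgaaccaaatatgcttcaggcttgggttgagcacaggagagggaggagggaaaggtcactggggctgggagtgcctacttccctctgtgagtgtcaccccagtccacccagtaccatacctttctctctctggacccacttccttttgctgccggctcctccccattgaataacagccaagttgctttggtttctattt
LGALS9C: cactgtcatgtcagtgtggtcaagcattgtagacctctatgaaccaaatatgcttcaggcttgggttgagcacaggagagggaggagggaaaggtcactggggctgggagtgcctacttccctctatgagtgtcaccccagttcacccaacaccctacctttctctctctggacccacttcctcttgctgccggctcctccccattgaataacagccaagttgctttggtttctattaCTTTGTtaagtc
The windows were identical at 232 of 262 aligned positions (88.5%), a share lowered by gaps because the windows are offset. LGALS9C holds a CTTTGT that begins 12 bases before its annotated start. LGALS9 holds none in its window, and its matching CTTTGT begins at base 1 after the start. The letters just before these matches are the same but for the last. The site is thus shared, and the annotated starts lie on different sides of it. In the 50 bases after the start, not shown, LGALS9 matches CTTTGT at base 1 and, on the other strand, at base 22, and LGALS9C matches CTTTGA on the other strand at base 32. A match to CTTTGA or CTTTGT occurs in 22.8% of 35116 RefSeq promoter windows of this length and a match to AGATAA or TGATAA in 14.6%, and neither LGALS9 nor LGALS9C had a match to the GATA motifs. The window of LGALS3 had no match to any of these motifs, and of the 3 windows of LGALS8 1 held a CTTTGA. A match is a description of letters and says nothing of binding.

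Proteins that galectins bind, and the enzymes that make their sugar ligands, were examined as 3 further lists with 47 tested genes. Together with the other galectins, 52 genes were tested beside the members. On the shGATA3-labelled arrays, 10 of these fell and 0 rose relative to control (19.2%, against 12.5% of all genes by their brightest probe, 5.7% higher and 6.83% lower), with a median difference of -0.12 against -0.0079 over all genes. On the shTCF1 arrays 6 rose and 9 fell (28.8%, against 23.1% of all genes, 10.0% higher and 13.1% lower), with a median of -0.086 against -0.022, and between the shRNA groups 2 were higher and 6 lower where shGATA3 was the label (15.4%, against 10.3%, with 5.87% higher and 4.48% lower). These comparisons share arrays and the lists were chosen with results of these data known, so the shares are descriptions. MGAT5, counted as lower in both contrasts with control, entered the test only through the control arrays.

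**Figure D4:**
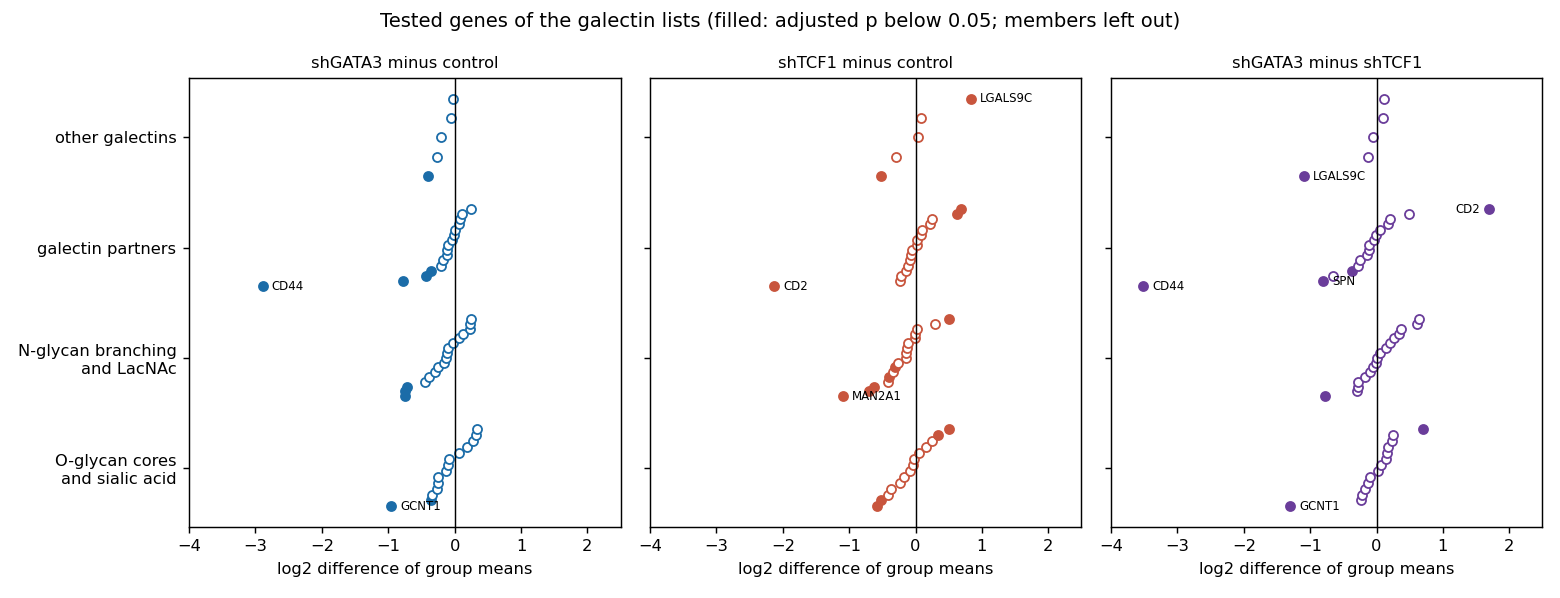
Log2 differences of group means (horizontal axis) for the 52 tested genes of the galectin lists apart from the members, by list (vertical groups) and contrast (panels), with filled points for limma adjusted p below 0.05. CD44 stands far to the left on the shGATA3-labelled arrays, CD2 on the shTCF1 arrays, and most other genes lie within 1 unit of 0.

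Among 16 tested galectin partners, CD44 and CD2 differed most. CD44, a hyaluronan receptor that carries galectin-binding glycans, read 11.07 and 10.89 on the control arrays, 8.12 and 8.05 on the shGATA3-labelled arrays, and 11.66 and 11.55 on the shTCF1 arrays. It was 7.41-fold lower on the shGATA3-labelled arrays than on control (limma adjusted p 3.63e-05) and 1.55-fold higher on the shTCF1 arrays than on control (limma adjusted p 0.00637). CD2, an adhesion receptor of T cells and a ligand of galectin 1, read 11.87 and 11.90 on the control arrays, 11.43 and 11.49 on the shGATA3-labelled arrays, and 9.77 and 9.75 on the shTCF1 arrays. It was 4.37-fold lower on the shTCF1 arrays (limma adjusted p 0.000132) and 1.35-fold lower on the shGATA3-labelled arrays (limma adjusted p 0.0196). The order of the shRNA groups was thus opposite for these receptors, with a direct difference of -3.52 for CD44 and 1.70 for CD2.

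Other partners moved less. PTPRC, which encodes the phosphatase CD45, fell by 0.77 on the shGATA3-labelled arrays (limma adjusted p 0.0297), and TFRC, the transferrin receptor, by 0.35 (limma adjusted p 0.0424). SPN, which encodes the sialomucin CD43, rose by 0.69 on the shTCF1 arrays (limma adjusted p 0.00665), where PTPRC and TFRC were not called. SPN and TFRC were lower on the shGATA3-labelled arrays than on the shTCF1 arrays, by 1.74-fold and 1.29-fold. CD7, another ligand of galectin 1, and LGALS3BP, a secreted glycoprotein that binds galectin 3, passed in no contrast.

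Of 17 tested genes of N-glycan branching and of N-acetyllactosamine, the sugar unit most galectins bind, 3 fell on the shGATA3-labelled arrays. These were B4GALT2 (-0.72, limma adjusted p 0.0215) and B4GALT3 (-0.75, limma adjusted p 0.00393), which encode galactosyltransferases, and MGAT5, whose enzyme adds the branch that favours galectin binding. MGAT5 was well above background on both control arrays (6.63 and 6.01) and not well above background on the other 4. By group means it was 1.69-fold lower on the shGATA3-labelled arrays and 1.62-fold lower on the shTCF1 arrays. These folds are uncertain, since the control arrays lay apart from each other and the lower groups were near background. MGAT5 entered the test only through the control arrays, where it was high, so its calls in both contrasts are descriptions. On the shTCF1 arrays the mannosidase genes MAN2A1 (-1.09) and MAN2A2 (-0.40), the branching enzyme gene MGAT4A (-0.63) and the galactosyltransferase gene B4GALT4 (-0.30) also fell, and SLC35A2, which encodes the UDP-galactose transporter of the Golgi, rose by 0.51. Between the shRNA groups 1 gene of this list was called, B4GALT3, which was lower by 0.78 on the shGATA3-labelled arrays.

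Of 14 tested genes of O-glycan cores and sialic acid, GCNT1 differed most. GCNT1 encodes the core 2 enzyme, which opens O-glycans for extension with galectin-binding units. It read 9.72 and 9.78 on the control arrays, 8.84 and 8.75 on the shGATA3-labelled arrays, and 10.10 and 10.09 on the shTCF1 arrays. It took the order of LGALS1, with differences of -0.96 for shGATA3 against control (limma adjusted p 0.00127), 0.34 for shTCF1 against control (limma adjusted p 0.0290) and -1.30 between the shRNA groups (limma adjusted p 0.000213). CMAS, which activates sialic acid, fell by 0.36 on the shGATA3-labelled arrays and by 0.59 on the shTCF1 arrays. Of the sialyltransferase genes, ST3GAL1 fell by 0.52 and ST3GAL2 rose by 0.50 on the shTCF1 arrays, and ST3GAL1 was higher by 0.71 on the shGATA3-labelled arrays than on the shTCF1 arrays.

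Of the 10 calls among these lists on the shGATA3-labelled arrays, those of CD44, B4GALT3 and GCNT1 held in all 6 fits that left out 1 array and in 4 of 4 other scalings, and without control array 1 all of the other 7 were lost. Of the 15 calls on the shTCF1 arrays, 7 held throughout (LGALS9C, CD2, SPN, CD44, MAN2A1, ST3GAL1 and CMAS) and the other 8 were lost without control array 1. Between the shRNA groups the call of TFRC was lost in every fit that left out an array, and the other 7 held throughout.

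The genes whose profiles over the 6 arrays lay closest to each galectin were sought among 13488 other genes well above background on all arrays, by the root mean square difference of profiles centred on their mean. For LGALS1 these were IRAG1 (0.16), VPREB1 (0.20) and CXXC5 (0.31), against a median of 1.27 over all genes. VPREB1 encodes a part of the surrogate light chain of B-cell precursors, and was higher by 1.64 on the shTCF1 arrays and lower by 0.95 on the shGATA3-labelled arrays, each against control. For LGALS9 they were ZNRF1 (0.052), FXYD5 (0.056) and BCL2L15 (0.060), against a median of 0.36. For LGALS3 they were CCAR2, EXTL3 and ANKRD11 (0.054 to 0.057, median 0.28), and for LGALS8 ACTR3, LGALSL and ZBTB14 (0.012 to 0.017, median 0.18). With so narrow a range for LGALS3 and LGALS8, many genes lie near them, and the likeness covers 6 arrays of 3 groups only.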

How the data were processed

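The authors deposited 1 scanner file per array and a matrix of log2 values. Per the file headers, the intensity values (processed signal) came from Agilent Feature Extraction 10.7.1.1, where the labels name version 9.1, and had their background subtracted without scaling between arrays. The same deposited files mark each spot (0 or 1) as outlying, saturated or well above background. The deposited log2 matrix was VSN-normalized per the labels, with scale and centring unstated. It served only as an alternative, because its columns follow the arrays they are named for unevenly. No column of sample values was left unmapped (0).

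Spots of a probe were averaged, and control spots and spots with outlier flags were left out, which removed 71 of 57176 probes. The model of variance stabilizing normalization (VSN) was rewritten in R 4.3.3, as the package was not installed, and applied to the intensities (trimming quantile 0.9, 7 iterations, 5 strata). Its arsinh scale approaches log2 for bright probes and shrinks the folds of dim ones. Its parameters were fitted on the tested probes, a choice made after seeing the data and both fits' results. Fitted on all probes, VSN left the median difference of tested probes at -0.077 and -0.14 for the shRNA groups against control. A probe was tested where at least 1 group had it well above background on both of its arrays. Names came from accessions in the scanner files matched to a RefSeq table (GRCh38.p14; 25729 probes had a symbol). The scanner files name hg19, and no position of a probe or gene was used. The only coordinates given are those of the RefSeq promoter windows, in GRCh38.p14. The tested probe of highest mean stood for its gene.

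limma 3.58.1 (lmFit, eBayes, two-sided) was fitted once over the 6 arrays with a mean for each group, after the study's methods (3 residual and 4.43 prior degrees of freedom). The smallest p that an exact permutation of 2 against 2 arrays can give is 0.333. The number of arrays limits the precision. The fit was tested on simulated data. Members, lists, the rule for named genes and tests were chosen with earlier results of these data known. The rule named all member probes, GATA3 and TCF7, every called list gene (for more than 8 in a list and contrast, the 4 largest rises and falls), and the 3 nearest profiles of each member. The list counts were planned with the members and are given without them, since these were chosen for their values. Sequences and motifs were read in Python 3.11.15. A promoter of LGALS1 was not analysed here. Alternatives were other scalings, background corrections, filters, variance models and sets of arrays, and the deposited matrix. The level of 1 marker list is not reported here.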

Additional observations from a re-analysis of the deposited data

How the results depend on the processing

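In the order shGATA3 against control, shTCF1 against control and shGATA3 against shTCF1, 3536, 7019 and 2914 probes were called, and 10, 15 and 8 genes of the lists apart from the members. Leaving out 1 array gave 1196 to 3312, 2665 to 7864 and 1339 to 2362 probes and 3 to 7, 7 to 19 and 7 to 9 list genes, the lowest without control array 1 in both contrasts with control and without the second shTCF1 array in the third. A lone array was then assumed to vary like the other groups. The same fits gave LGALS9 between -0.49 and -0.38 for shGATA3 against control, LGALS3 between 0.33 and 0.59 for shTCF1 against control, LGALS1 between -3.19 and -2.81 for shGATA3 against shTCF1, and LGALS3 between -0.19 and 0.075 there, its sign turning without the second array labelled shGATA3 (0.071) or the first shTCF1 array (0.075), with no call either way.

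With 75th percentile scaling the first contrast called 1809 probes and 3 list genes and the third 1666 probes, LGALS9 lost its call in the first (-0.45), and the differences of LGALS3 in the second (0.61) and of LGALS1 in the third (-3.20) grew. Quantile normalization gave 1996 probes, 5 list genes, 1779 probes, -0.45, 0.63 and -3.18 for these. With normexp, LGALS3 was called for shGATA3 against control (0.38), and LGALS1 came to 1.87 in the second contrast and -2.79 in the third. The first contrast called 6 list genes without a filter on dim probes and 6 with only the groups compared. The mean over both LGALS9 probes was 0.27 for shTCF1 against control. Of the probes called, 45.6%, 46.1% and 55.7% were higher.

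Chosen after seeing the data, VSN fitted on all probes called 2084 probes and 6 list genes in the first contrast and 1790 probes in the third, with LGALS8 at -0.46 and LGALS9 at 0.24 for shTCF1 against control, and 30.6%, 22.9% and 67.0% of called probes higher. Counting the 4 members gave 12 list genes in the first contrast. They are not counted in the other contrasts, which use the shTCF1 arrays behind their choice.

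In the deposited matrix limma called 0 probes and 0 list genes in each contrast, with 1814, 2652 and 1642 probes at an unadjusted p below 0.05. Its second control column correlated at 0.759 with its own array over the tested probes, where the other columns correlated at 0.986 to 0.996, and those of control 1 and both shGATA3 samples followed the other array of their group more closely. With it, shGATA3 against control turned sign for LGALS1 (1.13), LGALS8 (2.05) and LGALS9 (1.18), and shTCF1 against control came to 3.85 for LGALS1, 0.70 for LGALS3, 1.97 for LGALS8 and 2.01 for LGALS9. The differences of the third contrast use no control column, though the spread behind its test does. They were -2.72 for LGALS1 and -0.83 for LGALS9, the latter without a call. With that column left out, a setting added after seeing the data, the contrasts called 0, 0 and 553 probes and 0, 0 and 4 list genes, and LGALS1 (-0.92) and LGALS9 (-0.54) kept their direction without a call in the first, LGALS1 came to 1.79 and LGALS8 to -0.49 in the second, and LGALS1 to -2.72 and LGALS9 to -0.83 (limma adjusted p 0.0574) in the third.

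Same-numbered arrays shared little deviation: it correlated at -0.044, -0.0048 and 0.081 across probes. Whether same-numbered arrays belong to the same experiment is not given by the labels. With the replicate block 2957, 6298 and 2411 probes were called, and no member's call changed. A slide block was not run, since all arrays lie on 1 slide. The cause of the changes above was not tested.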
